A study of Mus musculus with 16 samples.

Results

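Smarcad1 and 30 other genes for chromatin regulators were followed through whole colon of wild type (WT) mice and of mice that lack Smarcad1 in the intestinal epithelium (KO), with and without colitis. They are all genes of the deposited tables whose symbols begin with the names of chromatin remodellers, of enzymes that add or remove marks on histones or DNA, and of proteins that bind those marks, which gave 31 of the 5171 distinct genes. Each gene was placed by its known function among remodellers (11 genes), writers (7), erasers (5), readers (5) or other DNA-binding proteins with an ARID domain (3). The animals were C57BL/6 males, with 3 libraries from each genotype in control and 5 from each in colitis. In the KO, a Vil1-cre transgene, active in epithelium alone, removed loxP-flanked exons 12 to 14 of Smarcad1, and all floxed animals descend from 1 embryonic stem cell clone. The stroma, muscle and immune cells of the sequenced tissue therefore kept the gene. All 4 groups carried a microbiota enriched by contact with donor mice from another facility, begun 2 weeks before treatment. Colitis was induced with 1% dextran sulfate sodium (DSS), a compound that damages the colonic epithelium, in the drinking water for 15 days, while controls received none. Ages are not given beyond the statement that animals were age-matched.

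Chromatin regulators decide how accessible DNA is to transcription. Remodellers use ATP to slide, evict or exchange nucleosomes. Writers place methyl or acetyl groups on histone tails or methyl groups on DNA, erasers remove them, and readers bind a given mark and bring further complexes to it. Smarcad1 is a SWI/SNF-like ATPase that also carries ubiquitin-binding CUE domains, and it is known for maintaining heterochromatin marked by methylated lysine 9 of histone H3 (H3K9). In the intestinal epithelium, which is renewed within days, such factors act in stem cells and in their differentiating progeny.

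The values are the authors' group means of log2 RPM, the reads of a gene scaled to 1 M reads of its library, one for each of the 4 groups, without the values of single libraries behind them. For this reason no SD and no test of the present differences is given, and every difference below is a difference of means. A gene is called listed where it stands in the authors' table of a comparison, which holds the genes that passed their threshold, and "rose" and "fell" are used for listed genes alone. The mean depth of a library lay between 8.005 M reads (WT colitis) and 10.1 M reads (WT control). All 31 genes lay above 3 reads per library in every group. The errors given with ± or as intervals are for counting of reads alone, and the spread between mice comes on top of them. Because whole tissue was sequenced, fewer cells of a type and less RNA per cell cannot be told apart.

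Smarcad1 fell in KO colon with and without colitis, to somewhat less than 50% of its WT level, and it was the gene with the largest genotype difference of the 31. It lies on chr6:65042583-65116061 of GRCm38, plus strand. Its levels as given by the authors were 5.77 log2 RPM in WT control and 5.68 in WT colitis, against 4.59 in KO control and 4.55 in KO colitis. Both KO means lay below both WT means, and within each genotype the control and colitis means lay close together. In control colon the KO minus WT difference was -1.18 ± 0.06, which leaves 44.1% of the WT level. In colitis it was -1.13 ± 0.05, which leaves 45.6%. Colitis minus control was -0.09 in WT and -0.04 in KO, and Smarcad1 was in neither table of colitis. The residual level was read from a tissue in which other cells keep the intact gene. Their share of it was not tested.

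The 3 deleted exons are shown because they define the KO allele. They lie between positions 65092495 and 65094365 of chr6 (GRCm38, plus strand, exon numbers from the principal GENCODE transcript of 24 exons) and are printed as joined in the transcript, with exon 13 in capitals between exons 12 and 14.
Smarcad1 exons 12 to 14: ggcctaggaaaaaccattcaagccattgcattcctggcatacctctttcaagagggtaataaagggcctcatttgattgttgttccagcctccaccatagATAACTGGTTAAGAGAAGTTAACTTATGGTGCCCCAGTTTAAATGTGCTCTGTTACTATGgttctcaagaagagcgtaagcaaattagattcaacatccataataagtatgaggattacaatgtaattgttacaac
These 236 bases are all coding and leave a remainder of 2 when divided by 3, so that their loss shifts the reading frame. They make up 4.57% of the 5168 bases of that transcript and 1.77% of the 13322 bases of merged exons over which reads of the gene can be counted. Reads over single exons were not examined.

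The levels spanned a wide range when expressed per kb of merged exons. In WT control the highest was Mbd2, which binds methylated CpG and brings the NuRD deacetylase complex, at 84.8 RPM per kb. The next were Mbd1, also a reader of methylated CpG, at 27.3, Hdac11 at 25.8, Chd3 at 25.7, Kmt5c at 25.3 and Baz2a at 23.5 RPM per kb. The last 4 lie close together and their order cannot be told from means without a spread. At the low end stood Arid5a at 1.39 and Chd5 at 1.62 RPM per kb, with Smarcad1 at 4.11. These places depend on the length used. Before division by length, Arid5a at 17.4 RPM lay above Chd5 at 15.5 RPM in WT control. Smarcad1 was divided by 13322 bases of merged exons, while its principal transcript has 5168. The differences between groups were small against the range of levels per kb in most genes.

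**Figure D1:**
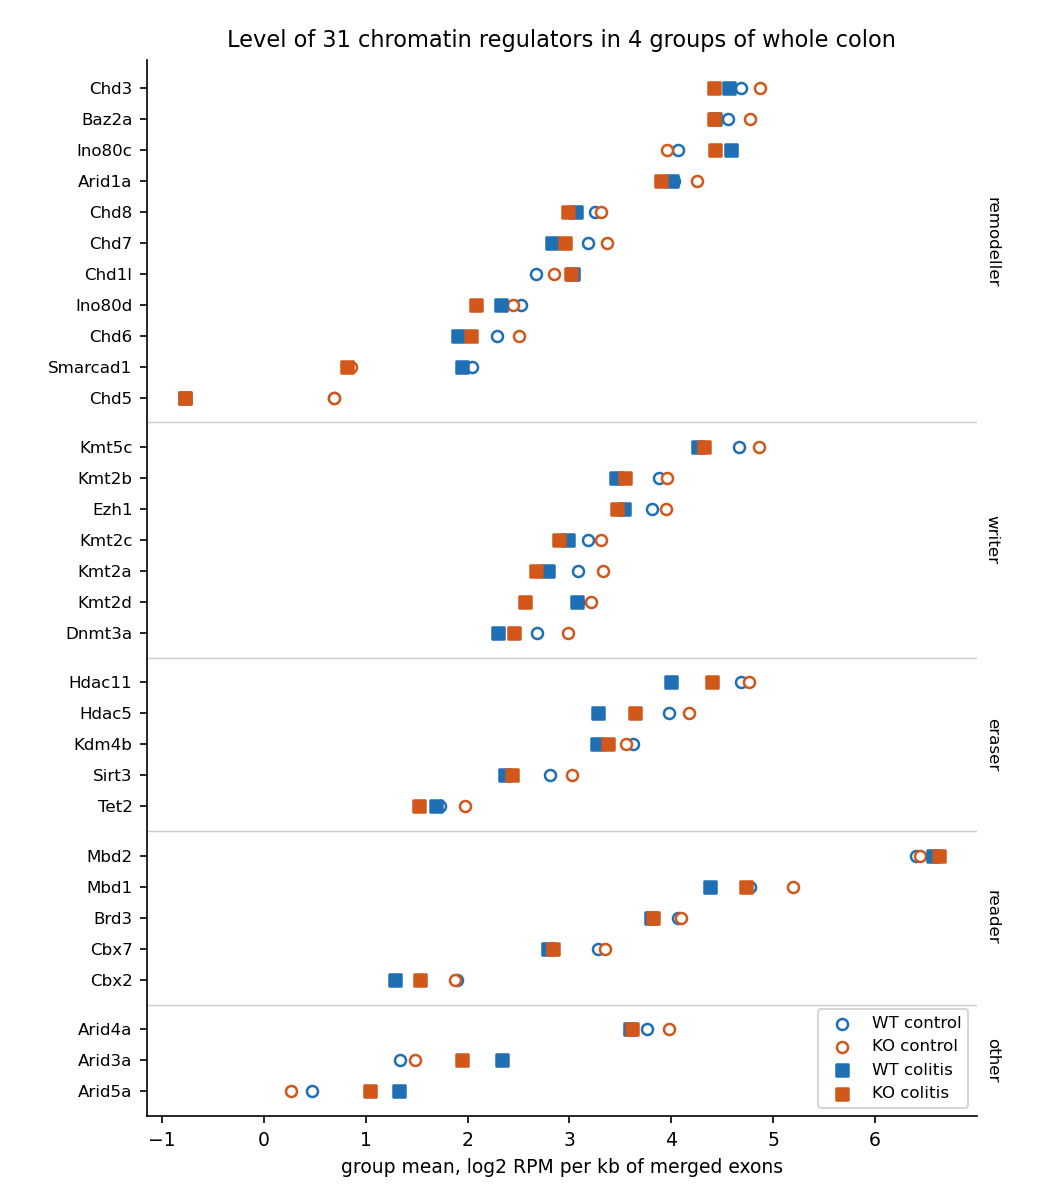
Group means of the 31 genes in log2 RPM per kb of merged exons, by role, with circles for control, squares for colitis, blue for WT and orange for KO. Mbd2 is highest in every group, Smarcad1 separates by genotype (-1.18 in control) and Chd5 by colitis (-1.47 in WT).

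Mbd1 was the other gene listed between the genotypes, and it rose in KO control colon. It lies on chr18:74267605-74282732 of GRCm38, plus strand. Its means were 7.52 log2 RPM in WT control and 7.12 in WT colitis, against 7.94 in KO control and 7.48 in KO colitis. KO lay above WT in both conditions, by 0.43 ± 0.03 (34.5%) in control and by 0.36 ± 0.02 (28.4%) in colitis, and in colitis the gene was not listed. Mbd1 fell in colitis by 0.39 in WT and by 0.46 in KO. The KO colitis mean was thus close to the WT control mean. Of the 31 genes, 2 were listed between genotypes in control colon, where 0.89% of all genes were, and 1 in colitis, where 1.08% were. Since Smarcad1 is the deleted gene, Mbd1 was the only member listed that was not itself targeted.

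Apart from these genes, genotype differences in control colon were small and mostly of one sign. In 24 of 31 genes the KO control mean was above the WT control mean, where 51.9% of all genes had a positive difference. The median was 0.14, against 0.01 over all genes. Among the writers it was positive in all 7, from 0.07 for Kmt2b to 0.31 for Dnmt3a, the enzyme of de novo DNA methylation. Of the 31 genes, 18, among them the 7 writers, came into the tables only by falling in KO colitis. The KO control mean was above WT in 17 of these 18, and in 76.6% of all 943 genes of that kind. That mean is part of the comparison that chose them, so the lean is not independent of the choice of genes. Only Smarcad1 passed a difference of 0.5 in size, which 6.46% of all genes did. In colitis the sign no longer leaned one way, with 15 genes higher and 16 lower in KO and a median of -0.00. Positive differences were seen in 46.8% of all genes there. Besides Smarcad1, Kmt2d alone differed by 0.5 or more in colitis (-0.51), a size reached by 14.5% of all genes.

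**Figure D2:**
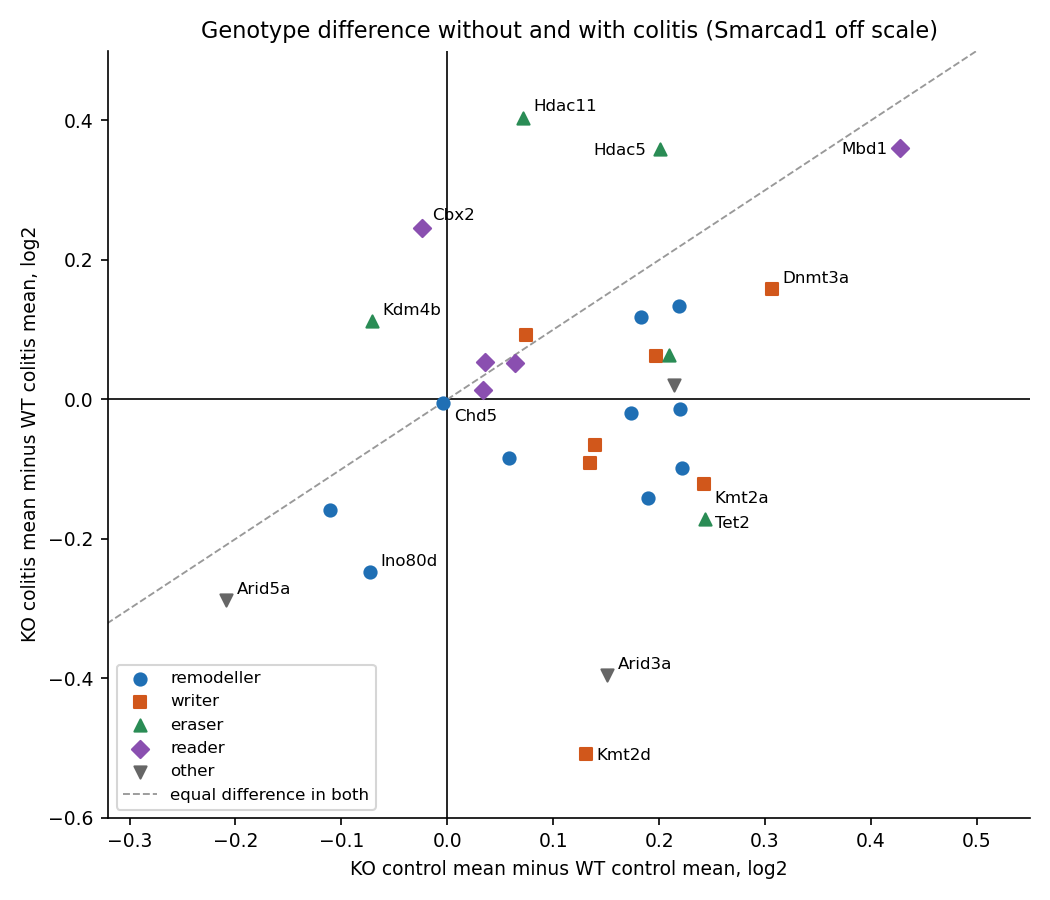
KO minus WT difference of the group means in control colon (horizontal axis, log2) against that in colitis (vertical axis, log2), 1 point per gene and shape by role, with Smarcad1 (-1.18 and -1.13) off the scale. Points below the dashed line, such as Kmt2d and Arid3a, have a lower KO minus WT difference in colitis than in control, while Hdac11, Hdac5 and Cbx2 lie above it.

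Colitis was the comparison in which most of these genes were listed. In WT, 11 of 31 were listed, 4 of which rose and 7 fell, while 63.1% of all genes of the tables were listed in this comparison (36.6% as rising and 26.4% as falling). In KO, 25 were listed, 4 of which rose and 21 fell, against 78.4% of all genes (44.8% rising and 33.6% falling). Every gene other than Smarcad1 came into the tables through at least 1 of these comparisons, so that the counts describe the selection and support nothing by themselves. Taking all 31, the colitis mean was below the control mean in 26 genes of each genotype, where 45.8% of all genes were lower in WT and 45.9% in KO. Median changes of -0.26 (WT) and -0.41 (KO) stood against 0.13 and 0.19 over all genes. A change of 0.5 or more in size was reached by 7 genes in WT and 9 in KO, while 59.8% and 58.0% of all genes did so. Centred on the median of all genes, where the scale shifts by 0.13 in WT and 0.19 in KO, 13 and 24 of the 31 reached that size. That median is one of genes that each passed a comparison. The share of all genes reaching that size after centring was not computed, so nothing is read from these centred counts.

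All 7 writers fell in KO colitis and none was listed in WT. Of all 5171 genes, without those listed between genotypes, 943 likewise fell in KO alone. The median of the writers was -0.53 in KO and -0.29 in WT, and all 7 WT means were lower in colitis as well. The 4 Kmt2 genes encode the large methyltransferases of lysine 4 of histone H3 (H3K4), Kmt2a and Kmt2b at promoters and Kmt2c and Kmt2d mainly at enhancers. Kmt2a (MLL1) had means of 7.15 log2 RPM in WT control and 6.85 in WT colitis, against 7.39 in KO control and 6.73 in KO colitis. It was highest in KO control and lowest in KO colitis, and fell by 0.66 in KO, with a WT difference of -0.29. Kmt2d had means of 7.40 in WT control and 7.39 in WT colitis, against 7.53 in KO control and 6.88 in KO colitis. KO colitis stood below the other groups, which lay close together. Kmt2d fell by 0.65 in KO, to 63.7% of the KO control level, and its WT difference was -0.01. For Kmt2c the changes were -0.19 in WT and -0.42 in KO, and for Kmt2b -0.42 and -0.41, so that Kmt2b was as much lower in WT as in KO although it was listed in KO alone.

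The promoters of Kmt2a, Kmt2c and Kmt2d are shown because these genes fell together in KO colitis. Each is the 250 bases before the start, 5′ to 3′ on the gene's own strand, from RefSeq on GRCm38.p6, and capitals mark every GC box, the motif GGGCGG on either strand (CCGCCC on the other).
Kmt2a, chr9:44881290-44881539, minus strand: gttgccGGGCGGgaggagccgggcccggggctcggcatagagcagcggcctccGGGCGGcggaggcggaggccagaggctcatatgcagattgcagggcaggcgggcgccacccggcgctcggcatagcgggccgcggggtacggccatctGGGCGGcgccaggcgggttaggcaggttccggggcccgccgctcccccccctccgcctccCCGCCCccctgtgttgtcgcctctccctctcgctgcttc
Kmt2c, chr5:25498784-25499033, minus strand: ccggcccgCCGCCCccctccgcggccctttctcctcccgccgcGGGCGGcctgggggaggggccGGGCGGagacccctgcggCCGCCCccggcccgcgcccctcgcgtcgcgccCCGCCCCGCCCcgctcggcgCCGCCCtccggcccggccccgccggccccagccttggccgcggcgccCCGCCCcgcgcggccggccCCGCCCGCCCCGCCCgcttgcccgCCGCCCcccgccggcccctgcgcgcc
Kmt2d, chr15:98871206-98871455, minus strand: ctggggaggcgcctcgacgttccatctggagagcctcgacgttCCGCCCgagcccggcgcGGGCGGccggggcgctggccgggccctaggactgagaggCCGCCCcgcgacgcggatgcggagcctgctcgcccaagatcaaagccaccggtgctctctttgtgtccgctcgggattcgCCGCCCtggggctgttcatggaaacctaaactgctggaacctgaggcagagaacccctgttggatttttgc
The windows hold 4, 12 and 4 GC boxes and 29, 48 and 26 CpG dinucleotides. Kmt2b had no entry in the promoter table.

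The remaining writers place other marks. Dnmt3a had means of 6.74 log2 RPM in WT control and 6.35 in WT colitis, against 7.05 in KO control and 6.51 in KO colitis, and fell by 0.53 in KO, beside -0.39 in WT. Kmt5c, which trimethylates lysine 20 of histone H4 in constitutive heterochromatin, fell by 0.53 in KO, beside -0.40 in WT. Ezh1, the Polycomb methyltransferase of lysine 27 of histone H3 typical of non-dividing cells, fell by 0.48 in KO, beside -0.28 in WT. In each of these the KO control mean was the highest of the 4. Families with a member in the tables stood beside families with none. No gene of the 10 histone acetyltransferases, of the 6 H3K9 methyltransferases or of the 4 other SET domain proteins that the names cover was in any table, and 4 of 8 H3K4 methyltransferases were, where 21.2% of all protein-coding symbols were.

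Of the 11 remodellers 8 fell in KO colitis, 2 rose in at least 1 genotype, and Smarcad1 was listed in neither. Chd5, a CHD remodeller best known from neurons, had the largest colitis change of the 31 genes in both genotypes. Its mean was 3.95 log2 RPM in both control groups, 2.49 in WT colitis and 2.48 in KO colitis. The control groups and the colitis groups were each almost equal between genotypes and stood far apart from each other. Chd5 fell, with a change of -1.47 in WT and -1.47 in KO, to 36.2% of the control level, and the difference of the changes was -0.00 (counting interval -0.32 to 0.31). This rests on few reads, between 44.9 and 157 per library.

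The Chd5 promoter is shown as that of the gene with this largest change, in the same form as above.
Chd5, chr4:152338401-152338650, plus strand: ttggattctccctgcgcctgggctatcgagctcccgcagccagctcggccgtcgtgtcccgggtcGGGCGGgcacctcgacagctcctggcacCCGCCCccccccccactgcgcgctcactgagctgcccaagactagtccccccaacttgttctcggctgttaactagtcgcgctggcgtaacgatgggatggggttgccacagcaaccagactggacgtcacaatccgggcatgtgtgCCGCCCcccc
It holds 3 GC boxes and 21 CpG dinucleotides.

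Of the CHD family 6 of 10 genes were in the tables. Besides Chd5, the 4 genes Chd3, Chd6, Chd7 and Chd8 fell in KO and were not listed in WT. Chd3, an ATPase of NuRD, fell by 0.45 in KO with a WT difference of -0.12. For Chd6 the changes were -0.38 in WT and -0.47 in KO, for Chd7, which acts at enhancers, -0.35 and -0.41, and for Chd8 -0.18 and -0.32. Chd1l, a remodeller recruited by poly-ADP-ribose to DNA damage, went the other way and rose by 0.35 in WT, with 0.16 in KO. Arid1a, the DNA-binding subunit of the BAF complex, had means of 7.55 log2 RPM in WT control and 7.52 in WT colitis, against 7.77 in KO control and 7.42 in KO colitis. It fell by 0.35 in KO and differed by -0.03 in WT. Arid1a was the only one of 14 BAF subunits covered by the names that was in a table. Baz2a, of the complex that silences ribosomal RNA genes, fell by 0.35 in KO beside -0.12 in WT.

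Both INO80 subunits in the tables moved, in opposite directions. Ino80c had means of 5.57 log2 RPM in WT control and 6.09 in WT colitis, against 5.45 in KO control and 5.93 in KO colitis, and rose by 0.52 in WT and 0.48 in KO. Ino80d fell by 0.37 in KO, beside -0.20 in WT. Of the 15 further subunits of the INO80, SRCAP and TIP60 complexes that were looked up, none was in a table.

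All 5 erasers had lower means in colitis in both genotypes. The median was -0.44 in WT and -0.45 in KO, and 3 were listed in each. Hdac5, a class IIa deacetylase that moves between cytoplasm and nucleus, had means of 7.11 log2 RPM in WT control and 6.42 in WT colitis, against 7.31 in KO control and 6.78 in KO colitis. It was the eraser listed in both genotypes and fell by 0.69 in WT and 0.53 in KO. Hdac11, the only class IV deacetylase, had means of 6.63 in WT control and 5.94 in WT colitis, against 6.70 in KO control and 6.34 in KO colitis. WT colitis was lowest, and the gene fell by 0.70 in WT, with a difference of -0.36 in KO. Of the merged exons of Hdac11, 17.9% overlap another gene, mostly one on the opposite strand, whose reads cannot be told apart where counting ignores strand.

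The remaining erasers act on other substrates. Kdm4b, a demethylase of H3K9, fell by 0.36 in WT, with -0.18 in KO. It was 1 of 18 histone demethylases covered by the names and the only one in a table. Tet2, which oxidises 5-methylcytosine, had means of 5.80 in WT control and 5.77 in WT colitis, against 6.05 in KO control and 5.60 in KO colitis. It fell by 0.45 in KO and differed by -0.04 in WT. Sirt3, a deacetylase that acts chiefly in mitochondria, fell by 0.59 in KO beside -0.44 in WT, and 12.7% of its exons overlap other genes. None of the 4 class I deacetylases was in a table.

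Among readers the Polycomb proteins Cbx2 and Cbx7, Brd3 and Mbd1 fell in at least 1 genotype and Mbd2 rose. The median was -0.39 in WT and -0.34 in KO. Cbx2 and Cbx7 are chromodomain subunits of Polycomb repressive complex 1 that bind methylated lysine 27 of histone H3. Cbx7 had means of 5.98 log2 RPM in WT control and 5.49 in WT colitis, against 6.05 in KO control and 5.54 in KO colitis. It fell by 0.50 in WT, and the KO difference of -0.51 was as large although the gene was not listed there. Cbx2 fell by 0.61 in WT, with -0.34 in KO, from 161 reads per library in WT control to 83.0 in WT colitis. Brd3, a BET protein that binds acetylated histones, fell by 0.28 in KO beside -0.26 in WT. Mbd2 rose by 0.19 in KO beside 0.17 in WT. No HP1 protein (3 genes), the readers of methylated H3K9, was in a table.

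The ARID proteins outside BAF held the largest rises. Arid3a, a transcription factor known from B cells and haematopoietic stem cells, had means of 3.81 log2 RPM in WT control and 4.81 in WT colitis, against 3.96 in KO control and 4.42 in KO colitis. Both colitis means lay above both control means. It rose by 1.00 in WT, a doubling (100% more), and by 0.46 in KO (37.1% more). Arid5a, a protein also known to bind and stabilise transcripts of inflammatory cytokines, had means of 4.12 in WT control and 4.97 in WT colitis, against 3.91 in KO control and 4.69 in KO colitis. It rose by 0.85 in WT and 0.78 in KO. Arid4a, a partner of the Rb protein and of Sin3 corepressors, fell by 0.36 in KO beside -0.17 in WT.

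**Figure D3:**
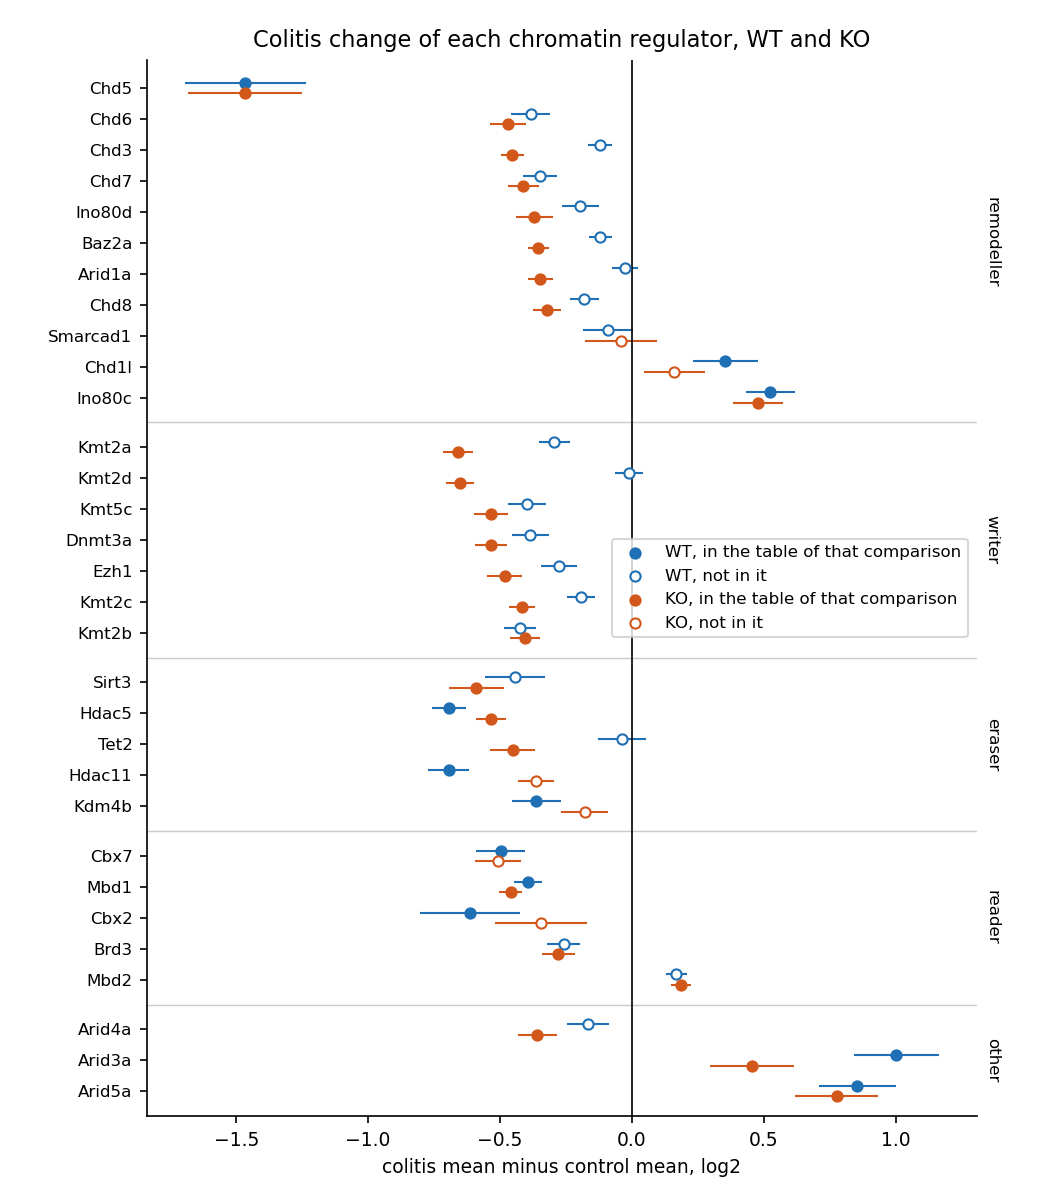
Colitis minus control difference of the group means (log2) for each gene in WT (blue) and KO (orange), with 95% intervals for counting error alone and filled points for genes listed in that comparison. Writers, erasers and most remodellers lie left of 0 in both genotypes, Chd5 is farthest left (-1.47) and Arid3a in WT farthest right (1.00).

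The colitis change was lower in KO than in WT in 24 of 31 genes, and the median difference of the changes was -0.13, against 52.8% of all genes and a median of -0.02. No library values were used, so this lean could not be set against the variation of mice. Nor is it independent of the choice of genes. Among the 18 genes that fell in KO alone the difference of the changes was positive in 1, and in 7.85% of all 943 genes of that kind. The 5 genes with the largest differences were Kmt2d at -0.64 (counting interval -0.71 to -0.56), Arid3a at -0.55 (-0.77 to -0.32), Tet2 at -0.41 (-0.54 to -0.29), Kmt2a at -0.36 (-0.45 to -0.28) and Hdac11 at 0.33 (0.23 to 0.44). In Kmt2d and Arid3a most of it lay in the colitis groups, where KO was lower than WT by 0.51 and 0.40. In Tet2 and Kmt2a the larger part lay in the control groups, where KO was higher by 0.24 in each. In Hdac11 it lay in colitis, where KO was higher by 0.40. The interval for counting error included 0 in Chd5, Chd6, Chd7, Cbx7, Kmt2b, Brd3, Mbd1, Mbd2, Arid5a, Ino80c, Sirt3 and Smarcad1. Whether it does so depends on the number of reads as well as on the size of the difference. Sirt3 at -0.15 is among them, while Kmt5c at -0.13 is not.

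Which table a gene was in went with the sign of these differences in all genes alike. Of the 31 genes, 19 were listed in colitis of KO alone, 5 in colitis of WT alone, 5 in both, and Mbd1 and Smarcad1 in further combinations. Of all 5171 genes, without those listed between genotypes, 943 fell and 918 rose in KO alone. In WT alone 564 fell and 493 rose, and in both 782 fell and 1381 rose. Listing in KO alone was thus common among all genes. Among the 18 that fell in KO alone, the KO control mean was above WT in 17 and the median KO minus WT difference in control was 0.19. Over all 943 genes of that kind, leaving out those listed between genotypes, it was positive in 76.6%, with a median of 0.11. The difference of the colitis changes was negative in 17 of the 18, with a median of -0.18, and positive in 7.85% of the 943, with a median of -0.22. Among the 4 that fell in WT alone the median difference of the changes was 0.23, and over all 564 such genes 0.31. The KO control mean is part of the comparison that put a gene into the KO table, so these values are not independent of the choice of genes. What lies behind the lean was not tested.

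The genes for chromatin regulators are long, and the colitis difference in these libraries went with length. The median merged exon length was 8.78 kb for the 31 genes, from 2.83 kb for Ino80c to 20.3 kb for Kmt2c, and 3.95 kb for all genes that could be matched. With all genes put into 4 length classes of equal number, 21 of the 31 were in the longest class, above 6.43 kb. In that class the median over all genes was -0.31 in WT and -0.41 in KO, and for the 21 chromatin regulators it was -0.26 and -0.45. In the shortest class, which holds none of the 31, the medians were 0.32 and 0.33. In the next class below, the 7 chromatin regulators had medians of -0.36 in WT and -0.34 in KO, against 0.06 and 0.10 over all genes there, so that they lay lower than their class. In the longest class their signs were more uniform, with a negative difference in 95.2% of the 21 in either genotype and in 63.7% (WT) and 64.1% (KO) of the other genes of that class. The exception among the 21 was Arid5a, which rose in both genotypes. For KO minus WT in control, the median over all genes was between -0.01 and 0.02 in the 4 classes and 0.14 in the 21. The value of the 21 is not independent of the choice of genes, as given above. What lies behind the relation with length was not tested.

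**Figure D4:**
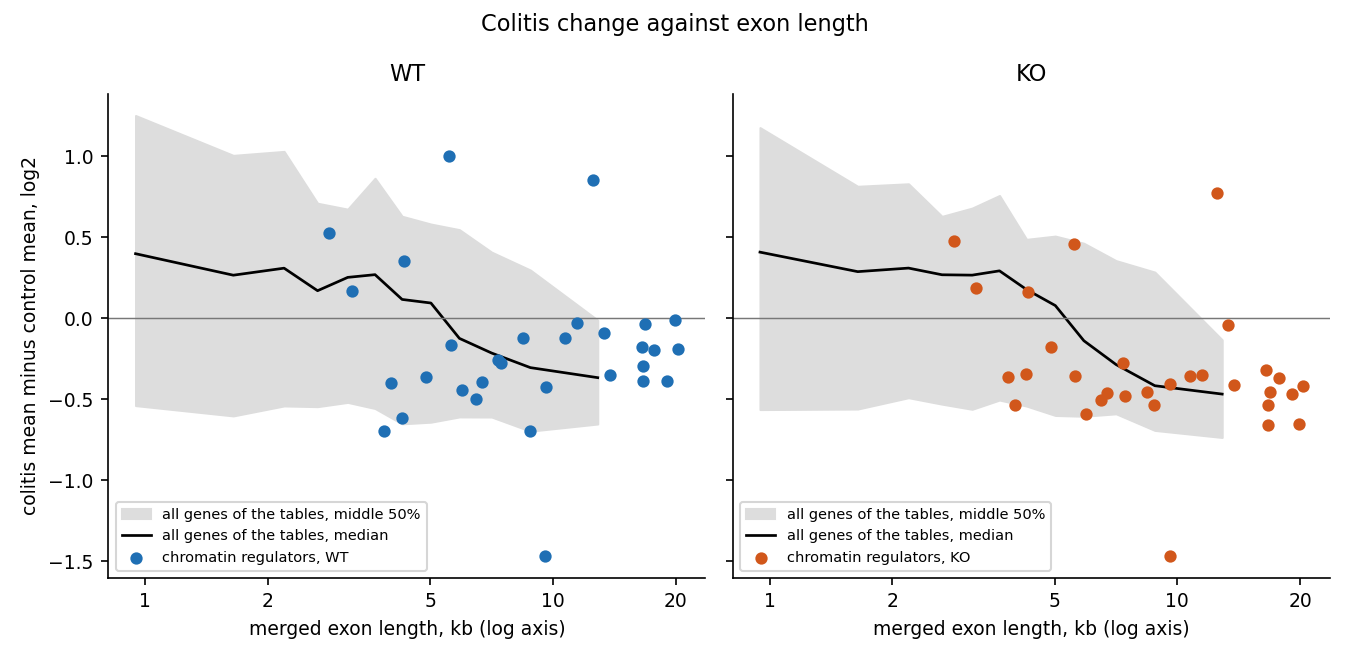
Colitis minus control difference of the group means (log2) against merged exon length (kb, log axis) in WT and KO, with points for the 31 genes and the median and middle 50% of all genes of the tables in 12 length bins of equal number. The median of all genes passes from above 0 in short genes to below 0 in long ones, and the points of the chromatin regulators scatter about it in the long range, apart from Chd5, Arid3a and Arid5a.

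Coverage of the gene class was close to that of all protein-coding symbols. The names match 147 protein-coding symbols of GENCODE M21, and 31 (21.1%) of them were in the tables, while 21.2% of all protein-coding symbols were. Neither share was limited to genes expressed in colon. The 117 partner subunits and related enzymes that were looked up for 7 complexes or classes gave 25 genes in the tables and none listed between genotypes. In colitis of WT 7 of them rose and 3 fell, and in colitis of KO 11 rose and 10 fell. Of the Polycomb partners, Suz12, an obligate subunit of the complex of Ezh1, rose in both genotypes (0.26 in WT and 0.22 in KO), Phc2 rose (0.32 and 0.23), and Phc3 fell in KO (-0.32, with -0.20 in WT). Of the NuRD, Sin3 and CoREST partners, Rbbp7 and Tbl1xr1 rose in KO (0.25 and 0.31) and Sin3a fell (-0.30). Of 20 further histone methyltransferases 8 were in the tables. In KO, Prmt2, Smyd3, Dot1l and Ash1l fell by 0.66, 0.61, 0.43 and 0.37, and Prmt3, Prmt7 and Ash2l rose by 0.40, 0.38 and 0.13. Of the BAF partners, Bcl7a fell in both genotypes (-0.65 in WT and -0.56 in KO), Bicral fell in KO (-0.39) and Ss18 rose in KO (0.18). Of the heterochromatin genes, Lbr rose by 0.29 in WT, Morc3 rose by 0.37 in both, Uhrf2 fell in KO by 0.33, and Hmga2 fell by 0.98 in WT. The histone chaperones Npm1 and Npm3 rose in KO by 0.46 and 0.40, and Chaf1a, of the replication-coupled assembly factor, rose by 0.43 in WT.

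Marker genes of several cell types also differed in the colitis comparisons. Of 15 leukocyte markers 13 were in the tables and all 13 rose in both genotypes, and their summed level went from 665 to 1772 RPM with colitis in WT and from 688 to 1650 RPM in KO. Ptprc, the pan-leukocyte marker CD45, rose by 1.34 in WT and 1.48 in KO, and S100a8, of neutrophils, had a WT colitis mean of 5.54 log2 RPM against 2.88 in KO colitis. None of the 13 leukocyte markers, S100a8 included, was listed between the genotypes. Of 13 epithelial markers 3 were in the tables, the colonocyte genes Car1, Slc26a3 and Aqp8, and their sum went from 7311 and 6945 RPM in WT and KO control to 3452 and 3396 RPM in colitis. All 3 fell in KO and 2 of them in WT. The other epithelial markers, among them Epcam, Vil1 and Krt8, passed no comparison. Fewer epithelial cells and less RNA of these 3 genes per cell cannot be told apart. Of 11 genes of smooth muscle and stroma 6 were in the tables, with the collagens and Dcn higher and Acta2 and Myh11 lower in colitis. Of 18 proliferation genes 4 were in the tables and all 4 rose in WT, and Mcm4 rose in KO too (by 0.41 in WT and 0.51 in KO). Of 8 genes of small intestine, Fabp2 and Fabp6 were present, and their summed level went from 579 to 295 RPM with colitis in WT and from 544 to 242 RPM in KO. Fabp2 fell in WT (-0.99, with -1.22 in KO), while Fabp6 rose in KO from 1.41 to 3.11 log2 RPM. The series' design text names small intestine, whereas the labels of all samples name colon, which is followed here. The part of cell make-up in the changes of the chromatin regulators was not tested.

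Position and sequence were examined as measures that the names do not use. Within 1 Mb of another gene listed between genotypes lay 7 of the 31 genes (22.6%), against 11.1% of all genes of the tables. Kmt2b lies 111 kb from Kirrel2, with KO minus WT differences of 3.86 (control) and 3.02 (colitis), while Kmt2b itself differed by 0.07 and 0.09. Kmt2a lies 117 kb from Treh, with differences of 2.28 and 2.63, and itself differed by 0.24 and -0.12. Neither thus shared the size of its neighbour's difference. The listed gene nearest to Smarcad1 was Nat8f2, 20.7 Mb away. RefSeq promoters were on hand for 20 of the 31 genes. Of the 250-base windows, 1 per gene, 15 of 20 held a GC box (GGGCGG on either strand), against 50.7% of the genes of the tables and 32.9% of all genes, and the median number of CpG was 20, 12 and 6 in the same order. TATAAA was found in 0 of the 20 windows and in 13% of all genes. A match is a description of letters and not of a bound site.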

How the data were processed

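Whole colon RNA-seq of 16 libraries was analysed from 4 deposited tables. Per the submitters' notes and the study's methods, reads were mapped to GRCm38 with HISAT2 2.1.0, reads over ribosomal RNA were removed because some samples were contaminated, reads over exons were counted in SeqMonk, and DESeq2 was run on 2 groups at a time. Each table holds the genes that passed an adjusted p of 0.05 in 1 comparison, with the authors' p-values, which were not used. The deposited log2 values, made by the authors, are group means of log2 RPM, not corrected for length, with a count of 0 set to 0.9 read. Labels number the replicates without naming separate mice.

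Differences of means were computed with pandas 2.3.3 and have no test. Mean library sizes were recovered from the steps of the lowest means, which all lay on whole reads (tolerance 0.0002 log2), by a procedure tested on simulated data. Means at or under 3 reads were raised to that floor. Counting errors treat reads as Poisson (± for the standard error, 95% intervals with z of 1.96) and cover counting error only. Exon lengths are merged exons of GENCODE M21. Where reads of overlapping or antisense genes fall on shared exons they cannot be told apart, since strand-specific counting is not stated in the sources used here. Named genes are Smarcad1, Mbd1, the 10 members with the largest change in each colitis comparison, the largest rise and fall of each role, the 5 with the largest difference between genotypes, and family examples. Members and lists were chosen with earlier results of these data known.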

Additional observations from a re-analysis of the deposited data

How the results depend on the processing

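For 13 results 58 alternatives were computed, 18 of them chosen after seeing the data, and 43 left the value within the limits set for it. Centring on the median of all genes turned the counts past 0.5 into 1 (KO against WT in colitis), 13 (colitis in WT) and 24 (colitis in KO), and the colitis medians into -0.39 in WT and -0.59 in KO. Centring on the median of the longest of the 4 length classes instead gave medians of 0.0521 in WT and 0.0068 in KO, and a count of 1 for KO against WT in colitis. A stricter size of 1 gave counts of 1 (KO against WT in colitis), 2 (colitis in WT) and 1 (colitis in KO). The shares of all genes at the stricter size or after centring were not computed, so these counts stand without a background. With listed members alone, the median KO minus WT difference reversed to -0.38 in control, since it then rested on Smarcad1 and Mbd1, and was -1.13 in colitis, which is Smarcad1 alone. The colitis median in WT was -0.39 with listed members alone, and the difference between genotypes was -0.0108 over those listed in WT. Leaving out each replicate was not run, because only group means were used. No paired analysis was possible because the tables used hold no columns of single libraries.
The main limit is one of the input chosen: the deposited group means cannot be set against the spread between mice, and the counts by sample in the study's supplement were not used here. Genes that passed no comparison were not analysed here, so nothing is said of the chromatin regulators outside the tables. Libraries of 8.005 to 10.1 M reads leave standard errors of counting of about 0.02 to 0.13 (log2) for a single difference of means. For the difference of the colitis changes they reach 0.16 (Chd5). Smarcad1 was lost in epithelium only, and a change confined to that layer is diluted in whole colon.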
